A study of Homo sapiens with 3 samples.

Results

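The DNA replication machinery was described across 3 RNA sequencing libraries of PC-3 cells, a long-established line derived from human prostate cancer. Its members were taken from a list of 57 genes written by function, with earlier results of these data known. They cover origin licensing, the replicative helicase, the polymerases and their clamp, nucleotide supply, and the E2F factors and E cyclins that govern entry into S phase. All 57 symbols were matched to an Entrez identifier among the 18331 identifiers in the deposited tables. All 57 were listed in every library, with 27 to 2202 counts, and all 57 were among the 14016 genes that passed the filter on low counts. KMT2D shRNA libraries 1 and 2, as the labels number them, were set against the single control shRNA library. All cells carried a lentivirus that expressed a short hairpin RNA (shRNA), against KMT2D, a histone methyltransferase gene, or a control, and RNA was taken after 7 days. The labels do not state the hairpin sequences, or whether the libraries came from separate cultures, so p-values measure only the spread between these libraries, which may be technical.

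Copying of the genome starts at origins bound by the origin recognition complex, where CDC6 and CDT1 load the ring of MCM2 to MCM7. The kinase CDC7 with DBF4, and then CDC45, the GINS complex and MCM10, turn that ring into an active helicase. Polymerase alpha with primase lays primers, RFC loads the sliding clamp PCNA, and polymerases epsilon and delta copy the leading and lagging strands. Most of these genes are transcribed at the border of G1 and S phase under E2F control, so their RNA is widely used as a sign of proliferation.

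Library totals were 5157550 and 5123817 estimated counts for KMT2D shRNA libraries 1 and 2 and 5559504 for the control. KMT2D RNA was not lower in the libraries labelled KMT2D shRNA. Its level was 107 CPM (counts scaled by library size and composition) in library 1, 138 in library 2 and 100.1 in the control, a log2 difference of 0.29 (SE 0.18; edgeR, adjusted p = 0.227). With the dependence of fold changes on transcript length taken out it was -0.55 (edgeR adjusted p = 0.0337). With the dependence on GC content taken out as well it was -0.43 and did not pass the threshold (edgeR adjusted p = 0.122). The directions below therefore belong to the libraries as labelled, not to a shown loss of KMT2D. Of 6 epithelial markers, the 4 keratins were lower in the labelled libraries by edgeR's test (2 with the length trend removed). The 6 summed to 928 and 986 CPM against 1731 in the control. EPCAM was lower in both labelled libraries without passing. CDH1 went the other way, with 93 and 94 counts against 70 (log2 fold change 0.51, edgeR adjusted p = 0.128). Of 6 prostate luminal markers, KLK2 and KLK3 were listed in no library and FOLH1 had at most 3 counts, whereas TMPRSS2 had 281, 208 and 197 counts in libraries 1 and 2 and the control, and 0 passed the test. Retinal markers were checked because the series text calls the profiles retinal. RCVRN was listed in no library and NRL had at most 3 counts, but CRX was lower (62, 57 and 111 counts, log2 fold change -0.80, edgeR adjusted p = 0.0141), OPN1SW was higher (17, 12 and 3 counts, edgeR adjusted p = 0.0453), and PDE6A had 52, 48 and 60 counts. The 4 listed leukocyte markers summed to 69.8 and 78.4 CPM against 184 in the control, of which CD68 alone made 45.9 and 55.8 against 149. LYZ was also lower (edgeR adjusted p = 0.0189), PTPRC had 7, 11 and 7 counts, CD14 had at most 4 and CD3E was listed in no library. The 6 fibroblast markers summed to 425, 448 and 419 CPM, most of it COL1A1 (373, 385 and 397 CPM). PDGFRA was higher, with 204 and 239 counts against 57 (log2 fold change 2.05, edgeR adjusted p = 5.8e-09), while DCN and LUM had at most 3 counts in any library. The part of these markers in the results below was not tested.

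More replication genes were higher than lower in the libraries labelled KMT2D shRNA, by modest amounts. As fitted, fold changes differed widely between some subunits of the same complex. Some of these differences shrank with the length trend removed, and none was tested. By edgeR's quasi-likelihood test 14 of the 57 rose (24.6%), where 16.5% of all 14016 tested genes did, and 2 fell (3.51%), where 14.5% of all tested genes did. Those that rose were MCM4, MCM6, MCM8, MCM10, CDC7, GINS4, PRIM1, RFC5, POLE, RPA1, RRM1, RRM2, E2F1 and E2F8, and those that fell were POLD4 and POLE4. The median log2 fold change of the 57 was 0.18, against -0.01 over all tested genes, and it was 0.28 in library 1 and 0.11 in library 2, which share the control. Both labelled libraries lay above the control for 34 members (59.6%, against 41.5% of all tested genes) and below it for 15 (26.3%, against 42.8%), and for 8 the control lay between them. The control had no replicate, so its spread was assumed to equal that of the labelled libraries. DESeq2, given the same counts, called 1 member higher (MCM6) and 1 lower (POLD4), with 10 members left without an adjusted p. It called 7.99% of the 9054 genes with an adjusted p higher and 5.03% lower. In both directions the share of members called by DESeq2 was smaller than that of all genes. The excess of members that rose was thus not seen in its calls.

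**Figure D1:**
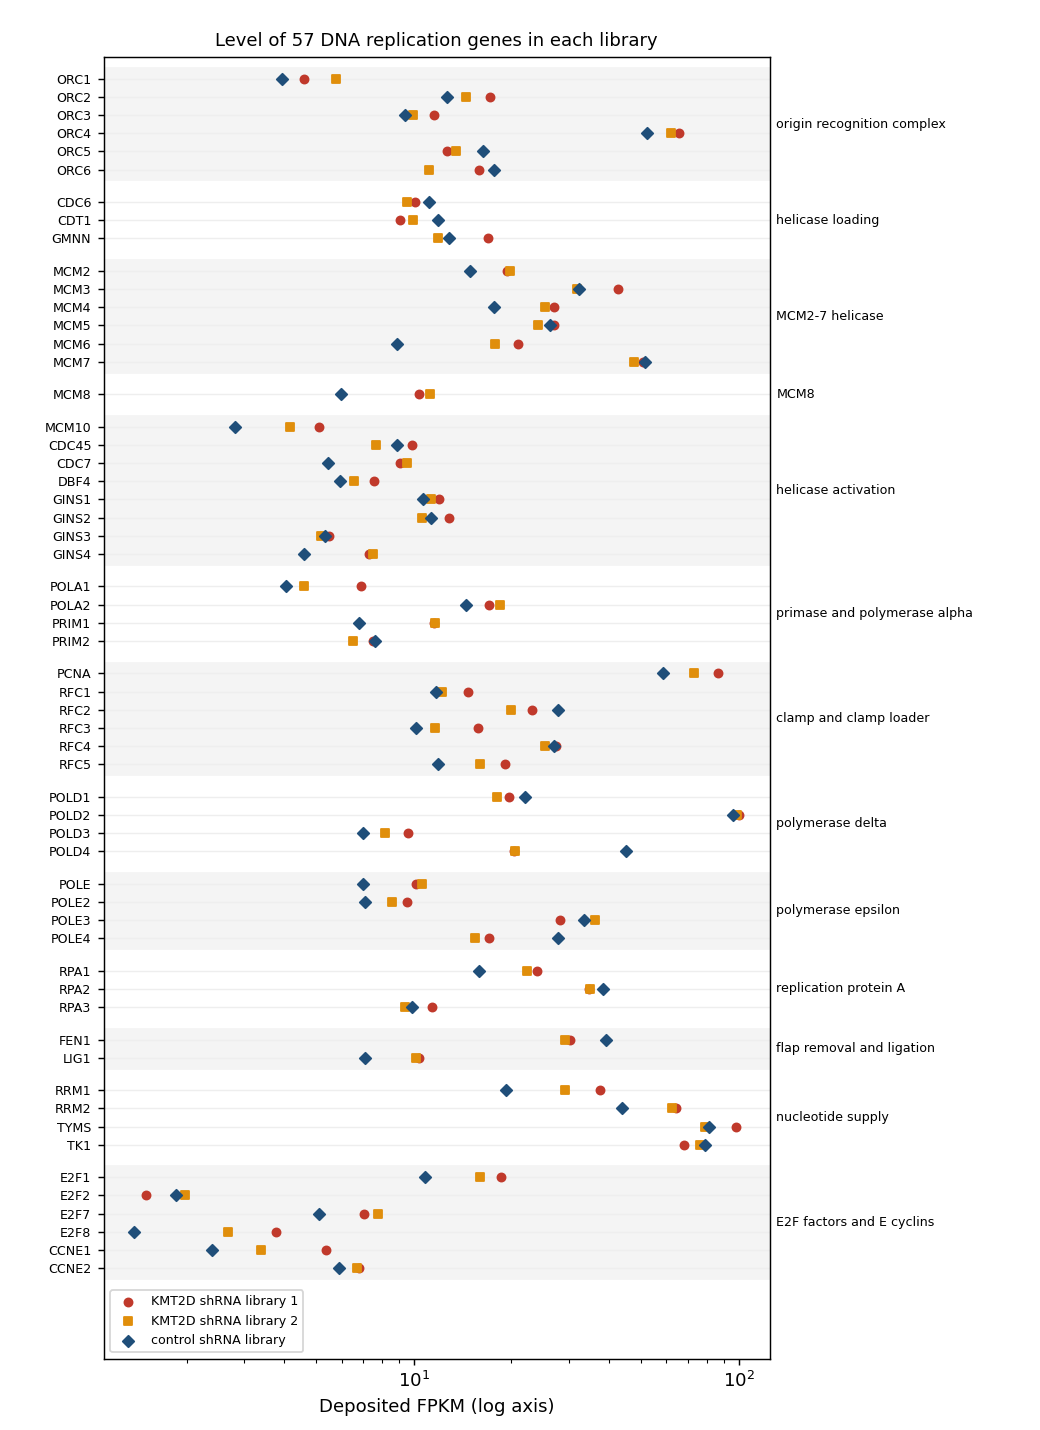
Deposited FPKM (reads scaled by transcript length and library size, log axis) of the 57 replication genes, grouped by role, with 1 point per library: circles and squares for KMT2D shRNA libraries 1 and 2, diamonds for the control. POLD4 and POLE4 have the diamond far to the right, while MCM6, MCM8 and RRM1 have it to the left of both labelled libraries.

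None of the 9 origin licensing factors passed the test, with 0 at an unadjusted p under 0.05 by edgeR and 0 calls by DESeq2. The 6 origin recognition subunits had log2 fold changes from -0.41 (ORC6) to 0.38 (ORC1), with 4 members above the control in both labelled libraries and 2 below. Per length, ORC4, an ATP-binding subunit, was the most abundant of them by far, at 65.8 and 62.0 FPKM in libraries 1 and 2 and 52.4 in the control. ORC1, whose protein is destroyed and remade in each cell cycle, was the least abundant, at 4.58, 5.77 and 3.94 FPKM in the same order. ORC4 stood at 421 and 406 CPM against 343 in the control, a log2 difference of 0.27 (SE 0.17, edgeR's adjusted p = 0.222) that turned to -0.11 with the length trend removed. Its order over the other 5 subunits was the same in all 3 libraries, whereas ORC2, ORC5 and ORC6 changed places.

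The helicase loaders CDC6 and CDT1 were lower in both labelled libraries, but not past the threshold. CDT1 stood at 24.7 and 27.8 CPM against 33.2 in the control (log2 fold change -0.34, SE 0.21, edgeR adjusted p = 0.222). CDC6 stood at 30.6 and 29.6 CPM against 34.7 (log2 fold change -0.21, edgeR adjusted p = 0.478). GMNN, or geminin, the inhibitor that binds CDT1, stood at 19.5 and 14.6 CPM with the control between them at 15.98. Per length, the ratio of CDT1 to GMNN was 0.536 in library 1, 0.841 in library 2 and 0.927 in the control, so that the labelled libraries differed more from each other than library 2 did from the control.

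Within the MCM ring the subunits did not move together. MCM6 rose from 34.3 CPM in the control to 78.6 in library 1 and 68.6 in library 2, which averaged 73.6 ± 7.05 (SD, n = 2). The gap to the control was several times the spread between the labelled libraries. The log2 fold change of MCM6 was 1.10 (SE 0.20, edgeR adjusted p = 1.93e-05). The ratio of MCM6 to the control was 2.29 in library 1 (exact 95% interval 1.92 to 2.73), and library 2 gave 2.0 (1.67 to 2.40). Such intervals describe counting error only, since amplified reads without molecular identifiers are not independent molecules. MCM4 rose from 86.5 CPM to 129 and 124 (log2 fold change 0.55, SE 0.18, edgeR adjusted p = 0.0159), a call that ended once the length trend was removed (0.30, edgeR adjusted p = 0.25). MCM2 stood at 67.1 and 70.2 CPM against 53.0 (edgeR adjusted p = 0.12). MCM3 stood at 136 and 104 CPM with the control at 106, so the groups overlapped. MCM5 and MCM7 had log2 fold changes of -0.06 and -0.08 (edgeR adjusted p = 0.829 and 0.754).

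The order of the MCM subunits per length showed what that shift did to the set. MCM7 was the most abundant in each library, at 50.8, 47.7 and 51.4 FPKM in libraries 1 and 2 and the control. MCM6 was the least abundant in the control, at 8.89 FPKM, with MCM2 next at 14.9. In the labelled libraries MCM6 was at 20.9 and 17.8 FPKM and MCM2 at 19.3 and 19.7. The highest subunit exceeded the lowest by 5.78-fold in the control, and by 2.63-fold and 2.68-fold in libraries 1 and 2. RNA levels of the 6 subunits were thus closer to each other in both labelled libraries than in the control, mostly through MCM6, since its ratio to MCM7 was 0.173 in the control and 0.411 and 0.373 in the labelled libraries.

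**Figure D2:**
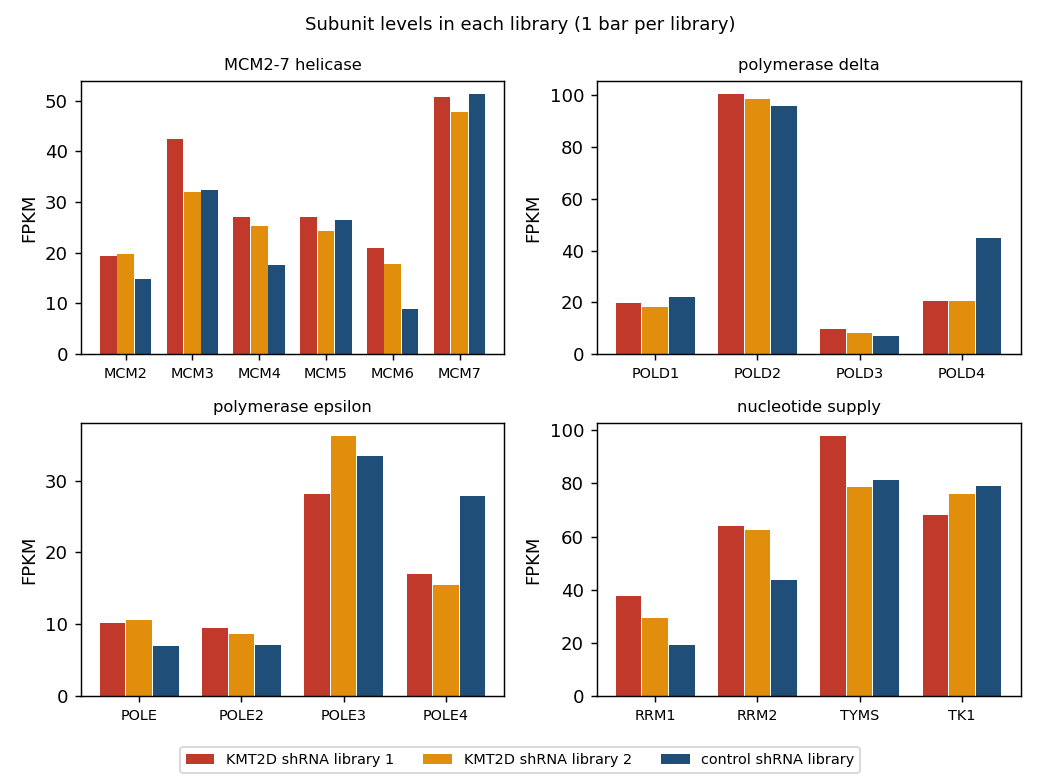
Deposited FPKM of the subunits of the MCM ring, polymerase delta and polymerase epsilon, and of the nucleotide supply genes, on a linear axis from 0 with 1 bar per library and no error bars. MCM6, RRM1 and RRM2 are lowest in the control, whereas POLD4 and POLE4 are highest there.

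MCM8, a relative of the ring subunits that acts in recombination repair and not in the ring itself, also rose, from 22.5 CPM to 38.2 and 42.2 (log2 fold change 0.83, SE 0.22, edgeR adjusted p = 0.00245).

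Of the 8 genes that activate the loaded helicase, 3 rose (37.5%, against 16.5% of all tested genes) and 0 fell (against 14.5%). With the length trend removed 1 rose (12.5%, against 9.18%) and 0 fell (against 8.64%). CDC7, the catalytic subunit of the kinase that phosphorylates the MCM ring, rose from 17.6 CPM to 29.2 and 31.3 (log2 fold change 0.78, SE 0.23, edgeR adjusted p = 0.0069). Its activating subunit DBF4 stood at 29.4 and 26.01 CPM against 23.8 and did not pass (log2 fold change 0.22, edgeR adjusted p = 0.473). Per length, the ratio of CDC7 to DBF4 was 0.914 in the control and 1.20 and 1.46 in libraries 1 and 2. MCM10, which helps the helicase to start, rose from 13.1 CPM to 23.1 and 19.3 (log2 fold change 0.70, edgeR adjusted p = 0.0292). GINS4 rose from 18.0 CPM to 27.7 and 29.2 (log2 fold change 0.66, edgeR adjusted p = 0.0223). The calls of MCM10 and GINS4 ended once the length trend was removed (0.47 and 0.51, edgeR adjusted p = 0.203 and 0.115). The other 3 GINS subunits and CDC45, partners of GINS4 in the active helicase, had log2 fold changes from -0.04 to 0.10 as fitted. With the length trend removed GINS1, GINS2, GINS3 and CDC45 were at 0.07, 0.43, 0.19 and 0.21, none past the threshold. GINS2 was then close to GINS4. For CDC45 and GINS2 the control lay between the labelled libraries.

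Among the 4 subunits of polymerase alpha and primase, PRIM1, the catalytic primase subunit, rose. It stood at 9.99 CPM in the control and at 16.6 and 17.1 in the labelled libraries (log2 fold change 0.76, SE 0.28, edgeR adjusted p = 0.0335), and removal of the length trend gave 1.09 (edgeR adjusted p = 0.00651). The large primase subunit PRIM2 stood at 17.4 and 15.4 CPM against 18.2, a log2 fold change of -0.15 (edgeR adjusted p = 0.689). Per length, PRIM1 was below PRIM2 in the control (ratio 0.888) and above it in libraries 1 and 2 (1.55 and 1.79). POLA1, the catalytic subunit of polymerase alpha, was among the 3 members that differed most between the labelled libraries, with 37.3 CPM in library 1, 25.6 in library 2 and 22.5 in the control (edgeR adjusted p = 0.107). The other members that differed most between them were CCNE1 and ORC6. ORC6 stood at 25.6 CPM in library 1, 18.3 in library 2 and 29.2 in the control (log2 fold change -0.41, edgeR adjusted p = 0.159).

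PCNA, the sliding clamp, was higher in both labelled libraries, at 111 and 96.6 CPM against 77.4 in the control. It missed the threshold as fitted (log2 fold change 0.42, SE 0.18, edgeR adjusted p = 0.0678) and passed it once the length trend was removed (0.79, edgeR adjusted p = 0.00293). An antisense gene, PCNA-AS1, overlaps PCNA and had 77 to 110 counts, and reads of such a pair cannot be told apart where strand is not marked. Of the 5 clamp loader subunits RFC5 rose, from 26.3 CPM to 41.1 and 35.7 (log2 fold change 0.54, SE 0.21, edgeR adjusted p = 0.0458). RFC5 overlaps WSB2, which had 308 to 643 counts, so the same limit holds there. RFC2 went the other way, at 38.6 and 34.1 CPM against 47.8 (log2 fold change -0.39, edgeR adjusted p = 0.121).

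The replicative polymerases held both of the members that fell. POLD4, the smallest subunit of polymerase delta, fell from 75.9 CPM in the control to 34.0 in library 1 and 34.9 in library 2, a mean of 34.5 ± 0.608 (SD, n = 2). The labelled libraries were close to each other and far below the control. The log2 fold change of POLD4 was -1.14 (SE 0.18, edgeR adjusted p = 2.69e-06). The ratio of POLD4 to the control was 0.448 in library 1 (exact 95% interval 0.374 to 0.535) and 0.459 in library 2 (0.383 to 0.549). The other 3 subunits of polymerase delta did not pass, with log2 fold changes of -0.25 for the catalytic POLD1, 0.04 for POLD2 and 0.34 for POLD3. Per length, POLD4 exceeded POLD1 by 2.04-fold in the control and by 1.04-fold and 1.13-fold in libraries 1 and 2, while POLD2 was the most abundant subunit in each library (95.9 to 101 FPKM).

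In polymerase epsilon the largest and the smallest transcript moved in opposite directions. POLE, the catalytic subunit, rose from 56.1 CPM to 79.5 and 85.1 (log2 fold change 0.55, SE 0.18, edgeR adjusted p = 0.0175). POLE4, a histone-fold subunit, fell from 19.3 CPM to 11.5 and 10.6 (log2 fold change -0.80, SE 0.26, edgeR adjusted p = 0.0172). The transcripts are 7859 bases long for POLE and 710 for POLE4, the longest and the shortest of the 57. Both calls ended with the length trend removed, at 0.07 for POLE (edgeR adjusted p = 0.834) and -0.27 for POLE4 (edgeR adjusted p = 0.517). POLE3, the histone-fold partner of POLE4, stood at 63.6 and 83.8 CPM with the control between them at 77.6.

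As fitted, replication protein A, the complex that coats single-stranded DNA, was higher in its large subunit. RPA1 rose from 70.5 CPM to 103 and 98.9 (log2 fold change 0.52, SE 0.18, edgeR adjusted p = 0.0226), a call that ended once the length trend was removed (0.31, edgeR adjusted p = 0.229). RPA2 was at 59.1 and 61.1 CPM against 67.2, and the control lay between the labelled libraries for RPA3. With the length trend removed RPA2 and RPA3 were at 0.13 and 0.37 (edgeR adjusted p = 0.664 and 0.337), so RPA1 no longer stood apart. FEN1, the nuclease that trims flaps between lagging strand fragments, stood at 69.0 and 68.2 CPM against 91.0 (log2 fold change -0.41, SE 0.17, edgeR adjusted p = 0.0682). LIG1, the ligase that seals them, stood at 31.7 CPM in both labelled libraries against 22.2 (log2 fold change 0.52, SE 0.22, edgeR adjusted p = 0.0666). Neither passed the threshold.

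Both subunits of ribonucleotide reductase, which makes deoxyribonucleotides, rose. RRM1 stood at 63.2 CPM in the control, 120 in library 1 and 95.97 in library 2 (log2 fold change 0.77, SE 0.19, edgeR adjusted p = 0.00119). RRM2 stood at 146 CPM in the control and at 208 and 209 in the labelled libraries (log2 fold change 0.52, SE 0.17, edgeR adjusted p = 0.0198). As fitted, the thymidylate genes did not follow. TYMS, the synthase, stood at 153 and 127 CPM with the control at 131, and it overlaps ENOSF1, which had 595 to 674 counts. TK1, the salvage kinase, stood at 107 and 123 CPM against 128 (log2 fold change -0.16, edgeR adjusted p = 0.53). With the length trend removed, TYMS was at 0.41 and TK1 at 0.16 (edgeR adjusted p = 0.112 and 0.577). RRM1 and RRM2 were then at 0.75 and 0.48 (edgeR adjusted p = 0.00615 and 0.0499), so TYMS lay close to RRM2.

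Of the factors that govern S phase entry, E2F1 and E2F8 rose. E2F1, an activator of replication genes, stood at 30.0 CPM in the control and at 49.9 and 43.9 in the labelled libraries (log2 fold change 0.65, SE 0.20, edgeR adjusted p = 0.0129). E2F8, a repressor of the same family, stood at 5.09 CPM in the control, 13.8 in library 1 and 10.1 in library 2 (log2 fold change 1.22, SE 0.36, edgeR adjusted p = 0.00676). These rest on 28 counts in the control and on 72 and 51 in the labelled libraries, so the ratios carry wide counting intervals (1.73 to 4.35 for library 1 and 1.22 to 3.25 for library 2). E2F7, the close relative of E2F8, was higher in both labelled libraries and just missed the threshold (log2 fold change 0.51, edgeR adjusted p = 0.0517). E2F2 was the least abundant member per length in the labelled libraries (1.5 and 1.98 FPKM), and E2F8 was in the control (1.38 FPKM). CCNE1, or cyclin E1, stood at 10.7 CPM in library 1, 6.90 in library 2 and 4.90 in the control, on 56, 35 and 27 counts (edgeR adjusted p = 0.0915). CCNE2 had a log2 fold change of 0.17 (edgeR adjusted p = 0.629).

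**Figure D3:**
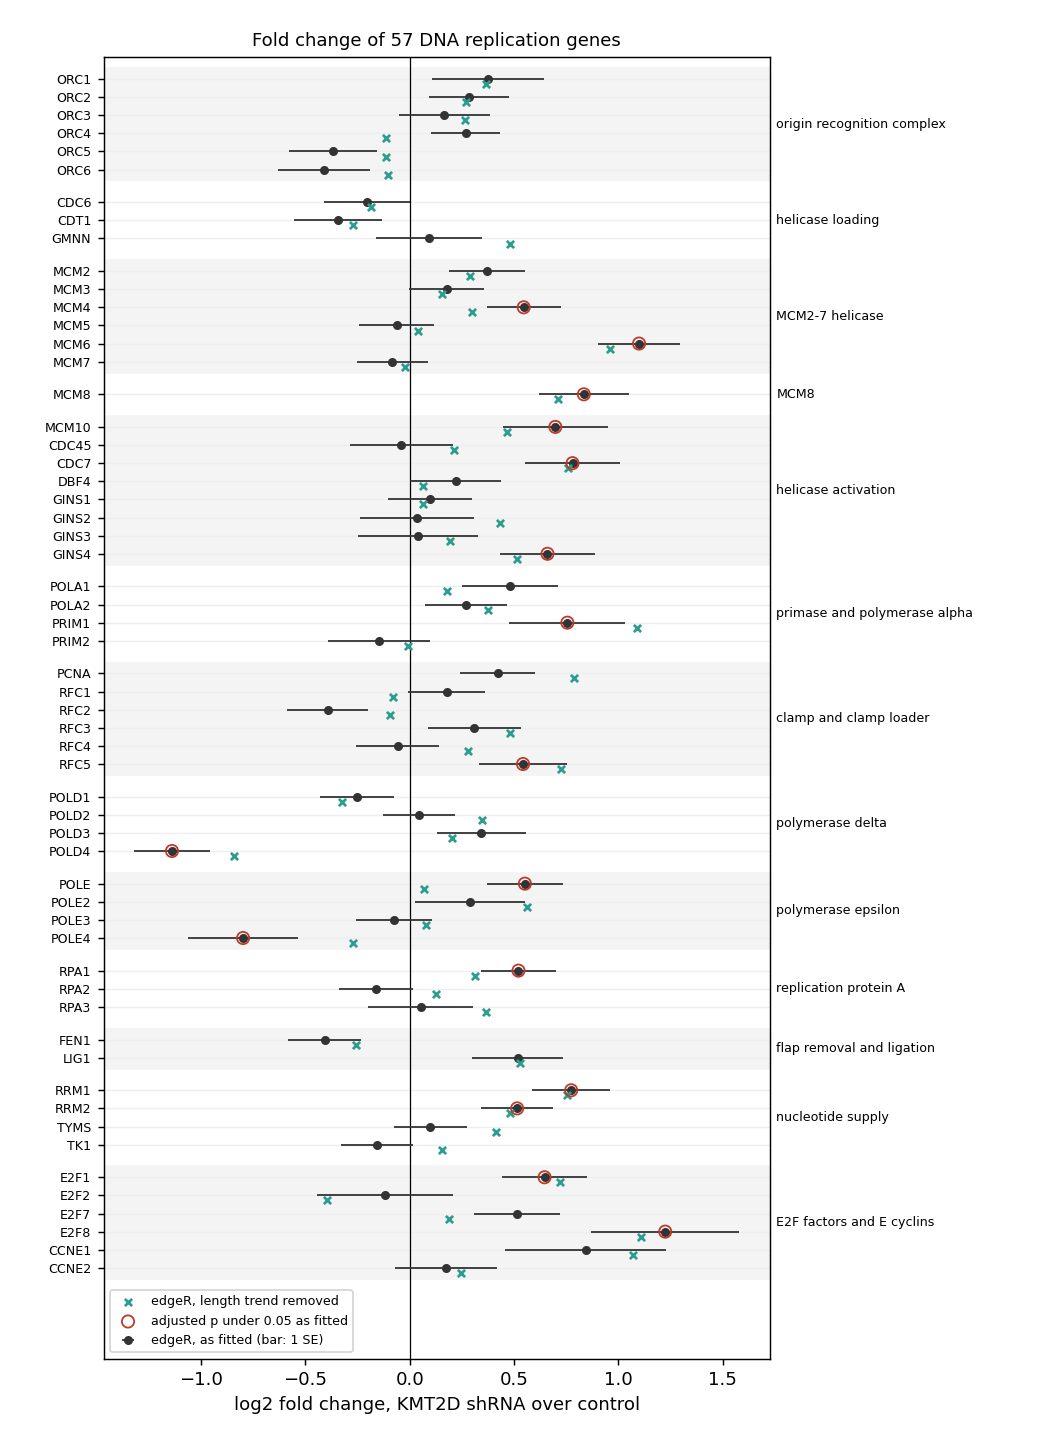
Log2 fold change of each replication gene, KMT2D shRNA over control, grouped by role. Black points are edgeR's fit, with bars of 1 SE derived from its F statistic. Red rings mark the 14 members that rose and the 2 that fell. Green crosses give the value with the length trend removed, which lies near 0 for POLE and farther from 0 than the fitted value for PRIM1 and PCNA.

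Transcript length moved with fold change over the whole data set and within the replication genes. Spearman's coefficient between length and log2 fold change was 0.467 across all 14016 tested genes and 0.474 across the 57 members, which share the same libraries, and -0.08 across the members with the trend removed. Each member was therefore set beside the 200 tested genes closest to its own length. Of the 57, 44 lay above the median of those genes and 13 below, with a median difference of 0.26 on the log2 scale. MCM6 stood at percentile 95 among genes of its length, E2F8 at 97, PRIM1 at 95.5, CCNE1 at 94, CDC7 at 93.5, PCNA and RRM1 at 93 and MCM8 at 91.5. These were the 8 of 57 members above percentile 90, where about 10% of genes lie by definition. CCNE1 and PCNA among them did not pass the test as fitted. POLD4, at percentile 6, was the member under percentile 10. POLE stood at percentile 51 and POLE4 at 25, among neighbours with medians of 0.55 and -0.55.

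The same held when genes were taken by length class. Among transcripts of up to 2000 bases the 17 members had a median log2 fold change of -0.04, against -0.36 for all 3750 tested genes of that class. The 14 members of 2000 to 3000 bases had a median of 0.10 against -0.10 for all. Between 3000 and 4000 bases, where 7 of 17 members rose, the medians were 0.38 and 0.10, and 15.4% of all tested genes of that class rose. Above 4000 bases the 9 members had a median of 0.51 against 0.36, and 4 of them rose, where 35.4% of all tested genes of that class did. With the length trend removed from the counts 10 members rose (17.5%, against 9.18% of all tested genes), and 1 fell (1.75%, against 8.64%). The 10 were MCM6, MCM8, CDC7, PRIM1, PCNA, RFC5, RRM1, RRM2, E2F1 and E2F8, and POLD4 was the 1 that fell. With length and GC trends both removed 5 of the 57 members rose (MCM6, PRIM1, PCNA, RRM1 and E2F1), a share slightly above the 6.48% of all tested genes. POLD4 alone fell, against 6.19% of all tested genes. Without a filter on low counts 2 of the 57 rose (MCM6 and MCM8), a smaller share than the 5.74% of 18258 genes. POLD4 alone fell, against 4.65% of those genes.

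**Figure D4:**
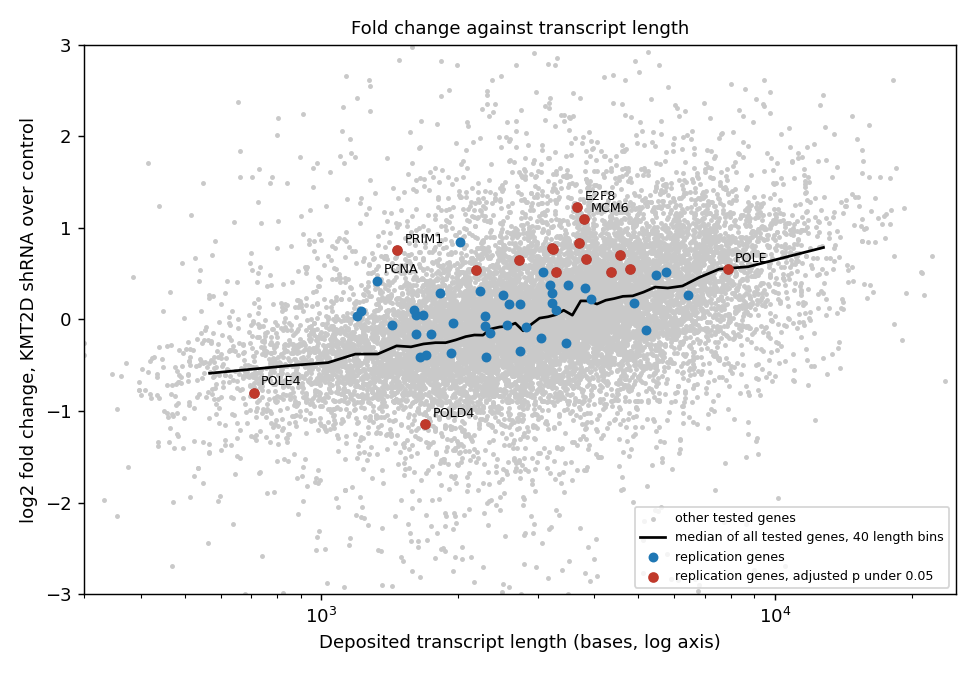
Log2 fold change, KMT2D shRNA over control, against transcript length in bases (log axis). Grey points are tested genes (164 lie outside the axes), the black line is their median in 40 length bins, blue points are replication genes and red points those that passed the test; E2F8, MCM6 and PRIM1 lie well above the line, POLD4 well below it, and POLE on it.

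Promoter sequence was examined because most of these genes are known E2F targets, and some of them rose while others did not. RefSeq promoters (GRCh38.p14, 250 bases before the start to 50 after) were matched for 49 of the 57 members, with 64 promoters in all. Motifs were searched on both strands: TTTCCCGC, TTTGGCGC or TTTCGCGC for E2F, CCAAT for the CCAAT box bound by NF-Y, and TTTGAA for the CHR element of late cell cycle genes. An E2F motif was in 24 of the 64 promoters (37.5%), against 4.01% of the 16148 promoters of tested genes and 2.74% of all 35116 promoters. It was in 5 of 13 promoters of members that rose (38.5%) and in 19 of 51 of the others (37.3%). A CCAAT box was in 11 of 13 promoters of members that rose (84.6%) and in 24 of 51 of the others (47.1%), against 34.6% for tested genes. Those 13 promoters belong to 11 of the 14 members that rose as fitted. Counted by gene, a CCAAT box was in 10 of these 11 and in 19 of 38 others (50%), against 43.1% of tested genes. The difference was not tested. The CHR motif was in 3 of the 64 (4.69%), against 10.5% for tested genes. A match is a description of letters in this window and shows no binding.

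The bases before the start are shown for 4 members that kept their calls with the length trend removed, 3 that rose and the 1 that fell. They are written 5′ to 3′ on the gene's strand, the minus strand in each case, with E2F and CCAAT motifs in capitals. MCM6 (chr2:135876444-135876693) holds the E2F letters in 4 matches, which overlap in pairs into the same run at 2 places, each followed by a CCAAT box in reverse. E2F1 (chr20:33686386-33686635) holds 1 E2F match and 3 CCAAT boxes. PRIM1 (chr12:56752324-56752573) and POLD4 (chr11:67353547-67353796), which moved in opposite directions, both lack an E2F match here, with 1 and 3 CCAAT boxes.
MCM6: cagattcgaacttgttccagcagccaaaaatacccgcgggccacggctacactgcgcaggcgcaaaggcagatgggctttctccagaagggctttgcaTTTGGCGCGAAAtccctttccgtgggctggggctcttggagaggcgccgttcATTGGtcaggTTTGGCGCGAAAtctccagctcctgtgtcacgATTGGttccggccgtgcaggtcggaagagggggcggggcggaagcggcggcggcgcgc
E2F1: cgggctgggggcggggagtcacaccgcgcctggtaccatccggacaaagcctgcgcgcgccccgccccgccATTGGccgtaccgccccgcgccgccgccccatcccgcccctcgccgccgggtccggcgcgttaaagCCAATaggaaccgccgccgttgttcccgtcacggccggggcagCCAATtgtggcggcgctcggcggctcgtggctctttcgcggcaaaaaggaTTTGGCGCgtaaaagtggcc
PRIM1: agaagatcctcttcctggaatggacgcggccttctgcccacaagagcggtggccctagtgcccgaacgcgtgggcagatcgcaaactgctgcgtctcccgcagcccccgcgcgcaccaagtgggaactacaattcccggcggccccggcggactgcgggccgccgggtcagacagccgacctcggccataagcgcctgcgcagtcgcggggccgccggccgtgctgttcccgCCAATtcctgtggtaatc
POLD4: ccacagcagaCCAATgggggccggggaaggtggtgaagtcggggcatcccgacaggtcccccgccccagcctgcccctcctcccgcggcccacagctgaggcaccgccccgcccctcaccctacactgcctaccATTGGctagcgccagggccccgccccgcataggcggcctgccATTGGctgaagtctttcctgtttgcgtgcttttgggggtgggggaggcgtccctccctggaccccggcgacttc

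**Figure D5:**
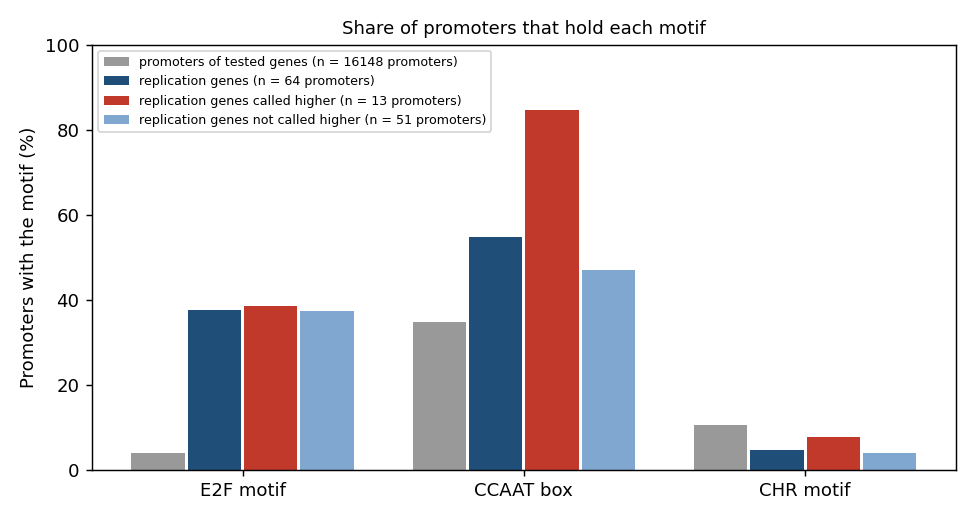
Share of promoters (%, axis from 0) that hold an E2F motif, a CCAAT box or a CHR motif, for 16148 promoters of tested genes (grey), 64 of replication genes (dark blue), and the latter split into 13 of members that rose (red) and 51 of the others (light blue). The E2F bars of the replication genes are of like height, at 37.3% to 38.5%, and the CCAAT bar of members that rose is the tallest, at 84.6%.

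Other genes of the pathway were taken from 9 written lists with 95 genes, of which 94 were tested. Of these, 23 rose and 10 fell (24.5% and 10.6%, against 16.5% and 14.5% of all tested genes), with a median log2 fold change of 0.15. With the length trend removed 9 rose and 3 fell (9.57% and 3.19%), against 9.18% and 8.64% of all tested genes, so the share that rose was then near that of all genes. Among 10 fork protection and checkpoint genes 3 rose, including the checkpoint kinase gene ATR (0.84) and the fork protein gene WDHD1 (0.80), while ATRIP, the partner of ATR, fell by 0.59 on the log2 scale. Of 8 other initiation factors 3 rose and 0 fell: TICRR (1.02) and MTBP (0.66), which act together at origins, and ATAD2 (0.73). Each of these 6 calls ended with the length trend removed. Among 10 genes of alternative clamp loaders and fork nucleases, ATAD5, which unloads PCNA, rose (1.46), and the PCNA-binding PCLAF and the clamp loader gene CHTF18 fell (-0.56 each), and 0 of the 10 passed once the length trend was removed. Of 8 genes of replication-coupled chromatin, DNMT1 rose (0.51) and SLBP, which binds histone RNA, fell (-0.55), and both calls ended without the length trend (0.22 and -0.26, edgeR adjusted p = 0.423 and 0.342).

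Of 18 nucleotide synthesis genes beyond the 4 listed members, 5 rose (27.8%) and 3 fell (16.7%). Without the length trend these were 3 (16.7%) and 2 (11.1%). Over all tested genes 16.5% rose and 14.5% fell, or 9.18% and 8.64% without the length trend. SAMHD1, a triphosphohydrolase that breaks down deoxyribonucleotides and is induced by interferon, fell from 178 CPM to 55.8 and 56.0 (log2 fold change -1.67, SE 0.17, and -1.68 after removal of the length trend, edgeR adjusted p = 2.18e-08). DHODH, of pyrimidine synthesis, fell from 20.7 CPM to 9.75 and 11.6 (log2 fold change -0.95, or -0.83 with the length trend removed). Of 14 G1/S regulators 6 rose (42.9%) and 1 fell (7.14%), or 4 (28.6%) and 0 without the length trend. CDK6, a G1 kinase, rose from 32.3 CPM to 90.4 and 93.8 (log2 fold change 1.51, or 0.85 with the length trend removed), and RBL1, a relative of the retinoblastoma protein, rose from 17.4 CPM to 35.9 and 34.9 (1.02, or 0.82). The E2F family gene E2F5 fell (-0.84, or -0.53 and no longer past the threshold, edgeR adjusted p = 0.0741). Of 10 ubiquitin ligase genes 2 rose, CCNF (0.94) and DDB1 (0.59), and 2 fell, among them RBX1 (-0.80). That is 20% each way, near the shares of all tested genes. Of these 4 calls that of CCNF was kept without the length trend (0.74), while DDB1 stood at 0.38 and RBX1 at -0.31 (edgeR adjusted p = 0.115 and 0.306). Of 9 tested translesion genes REV3L (0.79) and RAD18 (0.54) rose and 0 fell. Without the length trend 0 rose (REV3L 0.16 and RAD18 0.21, edgeR adjusted p = 0.648 and 0.443), and POLH, named after its value was seen, fell (-0.63, edgeR adjusted p = 0.0141, against -0.11 as fitted). Of 7 genes that copy mitochondrial DNA 0 rose and 0 fell by edgeR's test, with log2 fold changes from -0.37 to 0.34, 1 (SSBP1) with an unadjusted p under 0.05, and 0 calls by DESeq2.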

How the data were processed

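RNA sequencing of 3 PC-3 libraries (BGISEQ-500) was used. The submitters' processing notes name hg19, HISAT and Bowtie2, with no role; no source used here gives the counting tool or strand setting. Per the file headers, the authors deposited an estimated count for each gene, which need not be whole. Per the file headers they also deposited a transcript length and FPKM, a count normalized by that length and the library's depth. Gene symbols came from RefSeq (GRCh38.p14, names only), which matched 99.5% of identifiers.

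Estimated counts were rounded and tested with edgeR 4.0.16 in R 4.3.3 (filterByExpr with a minimum count of 10, TMM scaling, quasi-likelihood test, Benjamini-Hochberg adjustment over all 14016 tested genes, threshold 0.05). With 2 libraries against 1 the fit had 1 residual degree of freedom. The median prior degrees of freedom were 45.7, so each p-value rests mostly on a spread shared across genes, not on that gene's own spread. The biological coefficient of variation was 10.9%. Each SE was derived from the test, as the absolute log2 fold change over the square root of edgeR's F statistic. CPM was computed from TMM-scaled library sizes. The length trend was removed as a loess offset per library. Levels were compared between genes only by the deposited FPKM. The alternatives were other scalings, other filters, DESeq2 1.42.0, limma 3.58.1 on log2(FPKM + 1), trends with length and GC removed, and leaving out a library. The code was tested on simulated data.

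The members and lists were chosen with earlier results of these data known. Full values were given for members past the threshold as fitted or with the length trend removed, for the most abundant member of a role group with none, for the 3 members that differed most between the labelled libraries, and for up to 3 genes of each companion list by fold change; values of other members were added to describe their complexes. Some genes of these lists are not reported here by name.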

Additional observations from a re-analysis of the deposited data

How the results depend on the processing

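Counts of calls depended on the processing, while the median log2 fold change of the 57 replication genes stayed between 0.17 and 0.26 over the 10 alternatives that used all 3 libraries, and was 0.11 without library 1 and 0.28 without library 2. As fitted, 14 replication genes rose and 2 fell, 23 companion genes rose and 10 fell, and 4352 genes passed in all. With no filter on low counts these were 2, 1, 11, 2 and 1897. With the length trend removed they were 10, 1, 9, 3 and 2497, and with length and GC trends removed 5, 1, 4, 4 and 1776. DESeq2 gave 1, 1, 3, 1 and 1178. Limma gave 0, 0, 0, 1 and 295 on log2(FPKM + 1), 0, 0, 0, 0 and 99 on log2(FPKM + 0.1), and 0 for each without a filter, where 4568 genes had an unadjusted p under 0.05. With library totals 5 companion genes fell. The cause of these shifts was not tested. MCM6 and POLD4 were each called in 7 of 10 alternatives. Their adjusted p ranged from 1.93e-05 to 0.175 and from 2.69e-06 to 0.174 over edgeR, DESeq2 and limma. Every other member called as fitted kept its call in at most 5 of the 10. MCM8, RRM1 and E2F1 were called in 5, and MCM10 and RFC5 in 2. No paired analysis was possible because the control group has 1 library. Leaving out a labelled library leaves 1 against 1, so calls were not counted there. The single control limits every comparison.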
